A study of Oryza sativa with 6 samples.

Results

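The data describe RNA of rice roots that were given water only, read as the green (Cy3) channel of 6 Agilent rice arrays. Every gene and microRNA precursor with a probe on the array was taken as a member and ranked by its mean log2 Cy3 signal over the 6 arrays. That gave 29690 loci and 170 microRNA precursors, 29860 members in all, and these are all the loci and precursors on the arrays. Of the 12 channels of the series, the 6 Cy3 channels were used and the 6 Cy5 channels were not.

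The roots came from 6-day-old seedlings of the cultivar TN-67, and water was their only treatment. The red (Cy5) channel of 3 of the arrays held RNA of roots given 5 µM copper, and that of the other 3 held RNA of roots given 25 µM cadmium. The arrays are named here by that metal and by the replicate number in their title (copper 1 to 3, cadmium 1 to 3), although only the water channel is described. The series text names 3 control replicates for 6 arrays, so control RNA may have been used on more than 1 array, and the labels do not say which. Total RNA of whole roots was amplified and labelled. In such bulk RNA, fewer cells of a type and less RNA per cell cannot be told apart.

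A root is made of concentric tissues, with an epidermis that takes up water and ions, a cortex, an endodermis that controls passage to the vessels, and a central cylinder that carries them to the shoot. MicroRNAs are short RNAs cut from hairpin precursors, and in plants they mostly act by guiding an Argonaute protein to slice messenger RNAs of matching sequence. Several families are known for roles in plant roots. miR164 limits NAC transcription factors, miR166 limits HD-ZIP III factors that pattern the vascular tissue, and miR395 and miR399 act in sulfate and phosphate supply.

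The array files name loci by number only. None of the 29690 locus numbers, and none of the 169 precursor names, matched the reference gene table used here, so protein-coding loci stay without gene names and root cell type markers could not be checked. The tissue label was therefore not tested against markers. The 39 gene lists drawn up for root functions found no member and gave no result. No sequence is shown, because no file used here holds the probes.

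Each array carried 45151 spots, of which 43734 were not control spots, and no spot was saturated in Cy3. The 75th percentile of net signal ranged from 789.5 to 2119 scanner units between arrays, and all arrays were scaled to a common value of 1152. Levels below are log2 of these scaled units. They depend on how well each probe binds, so the order is one of spot signals and not of transcript numbers. Negative-control spots kept a net signal of 41.5 to 105 units, which after scaling was 22.6 units on cadmium 1 and 68.5 to 84.6 on the other arrays. A level near 6 is therefore at background, and background on cadmium 1 was lower than on the rest. Errors are SDs with n = 5, because the water channels of copper 2 and copper 3 differed by less than the noise between spots of 1 array and were averaged as 1 sample. Copper 3 and cadmium 3 were close to that noise as well, with an SD of 0.144 between them over probes of 10 spots against 0.173 and 0.161 within each, and 0.145 over probes of 2 spots against 0.154 and 0.122. They were kept apart, so 5 may exceed the number of distinct control samples. Where nothing says that the control RNA came from separate plants, such SDs may be technical.

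Most loci of the array gave signal in water-control roots. A spot counted as detected when the scanner program called it well above background, and a locus when any of its probes did. Of 29690 loci, 20605 (69.4%) were detected on all 6 arrays, 4659 (15.7%) on none, and 4426 (14.9%) on 1 to 5. Single arrays detected between 22070 and 23825 loci, or 74.3% to 80.2%, with the highest count on cadmium 1. The groups separated by level: loci detected on all 6 arrays had a median level of 9.24, those on 1 to 5 arrays 6.54, and those on none 6.19.

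**Figure D1:**
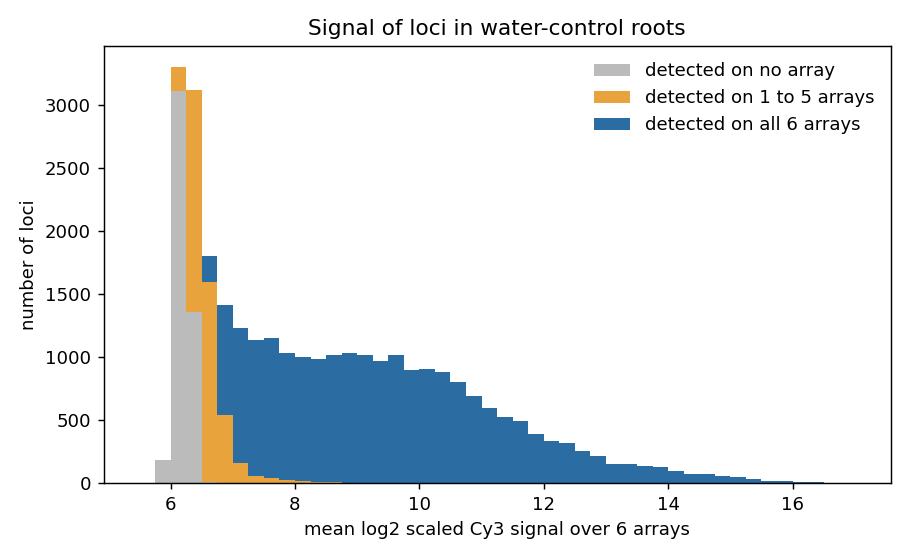
Histogram of the mean log2 scaled Cy3 signal over 6 arrays (x axis) of 29690 loci (y axis, number of loci, stacked by the number of arrays on which the locus was detected). Loci detected on no array pile up near 6, with a median of 6.19, and loci detected on all 6 arrays reach 16.86.

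Probes outside the loci and precursors show the low end of this scale. None of 12 artificial probes tagged "art" was detected on any array, and none of 11 probes for other plants was detected on all 6. Of 12 probes tagged "random", 1 was detected on all 6 arrays, and of 24 tagged "genome", 3 were. The 50 such probes detected on no array had median levels between 6.23 and 6.58 on 5 arrays and 4.64 on cadmium 1.

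Detection varied with the class tag of the probe and the number of probes. Loci whose probe carries the tag mRNA were detected on all 6 arrays in 75.6% of 20495 cases, those tagged COMBINER_EST in 57.4% of 6942, and those tagged COMBINER in 49.6% of 2251; the files do not define these tags. Loci with 1 probe were detected in 63.2% of cases and loci with 4 or more probes in 90.7%, by a rule that counts any probe and so favours loci with several. Of 7801 loci with 2 or more probes, 5619 had every probe detected on all 6 arrays. The median level, taken from the brightest probe, was 7.61 for loci with 1 probe and 11.02 for those with 4 or more. The part of the rule in the gap was not tested. Among the mRNA-tagged loci, detection was 84.7% for the 177 whose probe is tagged CDS and 64.7% for the 797 tagged UTR.

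Detection varied by chromosome. It was highest on chromosome 3, where 2704 of 3618 loci (74.7%) were detected on all 6 arrays, and lowest on chromosome 11, with 1114 of 1824 (61.1%). The other 10 chromosomes lay between 67.4% and 72.4%. Neighbouring loci had weakly similar levels, with a Pearson r of 0.113 over 29678 adjacent pairs, given as a description because neighbours share chromosome and array. After a locus in the brightest 5.00%, the next locus was also in it in 8.22% of cases, and the longest run was 4 loci, on chromosome 3.

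Levels spanned more than 10 log2 units. The median locus was at 8.12, with 5% of loci below 6.13 and 5% above 12.50. Above a level of 10 lay 7398 loci (24.9%), above 12 lay 2136 (7.19%), above 14 lay 444 and above 16 lay 19. The brightest 100 loci took at least 13.0% of the summed signal of each array.

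The brightest locus was Os02g0662000 on chromosome 2, with 2 probes. Its level was 16.36, 17.64 and 17.24 on copper 1 to 3 and 15.89, 16.85 and 17.17 on cadmium 1 to 3, or 16.74 ± 0.62 (SD, n = 5). The next was Os03g0201300 on chromosome 3, at 16.30, 16.87 and 16.93 on copper 1 to 3 and 16.13, 16.95 and 16.81 on cadmium 1 to 3, or 16.62 ± 0.37 (SD, n = 5). Both were lowest on copper 1 and cadmium 1, and their mean levels differ by less than their SDs. The brightest 100 ran from 16.86 down to 15.19 in mean level over the 6 arrays, where the next locus stood at 15.19. Of these 100, 84 carried the tag mRNA, beside 20495 of all 29690 loci and 15503 of the 20605 detected on all 6 arrays. They came from all 12 chromosomes, and the median SD among them was 0.29.

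Which loci were brightest depended on the array. Only 6 loci were among the brightest 100 on all 6 arrays, and 237 were among them on at least 1. Of the 4 arrays that share a slide and scan (copper 2, copper 3, cadmium 2 and cadmium 3), 70 loci were among the brightest 100 of every array, and 70 were among those of both copper 1 and cadmium 1, which each lay on a slide of their own.

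The same split ran through the whole water channel. Across the 20682 loci and precursors detected on all 6 arrays, copper 1 and cadmium 1 correlated at 0.978, and arrays of the shared slide at 0.976 to 0.998. Between the slides the correlation was 0.780 to 0.884. The SD of the log2 difference was 0.13 between copper 2 and copper 3, 0.50 between copper 1 and cadmium 1, and 1.08 to 1.33 between copper 1 or cadmium 1 and an array of the shared slide. These are correlations across genes within pairs of arrays and carry no test. Copper 1 and cadmium 1 were on different slides and in different scans, and both carry the replicate number 1, so slide, scan and replicate cannot be told apart.

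**Figure D2:**
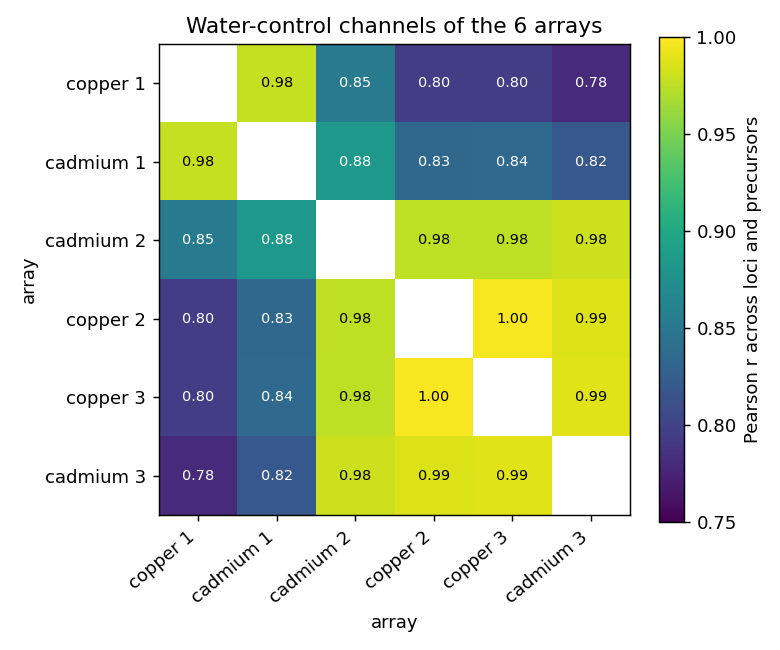
Pearson correlation of log2 Cy3 signal across 20682 loci and precursors detected on all 6 arrays, for each pair of arrays (both axes, arrays; colour and printed number, r). Copper 1 and cadmium 1 correlate with each other at 0.98 and with the 4 arrays of the shared slide at 0.78 to 0.88.

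The median SD of a locus detected on all 6 arrays was 0.45 over the arrays and 0.14 within the shared slide. Taking copper 1 and cadmium 1 together against the shared slide, 2624 loci (12.7% of 20605) were at least 2-fold higher on the former and 4009 (19.5%) at least 2-fold lower, together 32.2%, and in 6578 of these the arrays did not overlap. At 4-fold, 5.7% were apart, of which 798 loci (3.87%) were higher and 376 (1.82%) lower. At 16-fold, 348 (1.69%) were higher and 0 lower. The median difference of all 20605 loci was -0.14. Among the 7375 of these loci with a mean level of at least 10, 1435 were at least 2-fold higher and 1268 lower, with a median difference of 0.17. In this setting the excess of lower loci thus lay among dimmer loci. With normexp and quantile normalization, 1098 of the 7375 were higher and 1452 lower, so where the excess lay depended on the processing. Undetected control probes were themselves lower on cadmium 1 (above), and the part of that background in the count was not tested. The balance at 4-fold also depended on the processing. With the scanner's processed signal 1041 loci were higher and 860 lower, and with negative-control spots subtracted 987 and 782. With normexp, 801 were higher and 327 lower. These groups of arrays come from the slide numbers in the file headers and are described without a test.

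**Figure D3:**
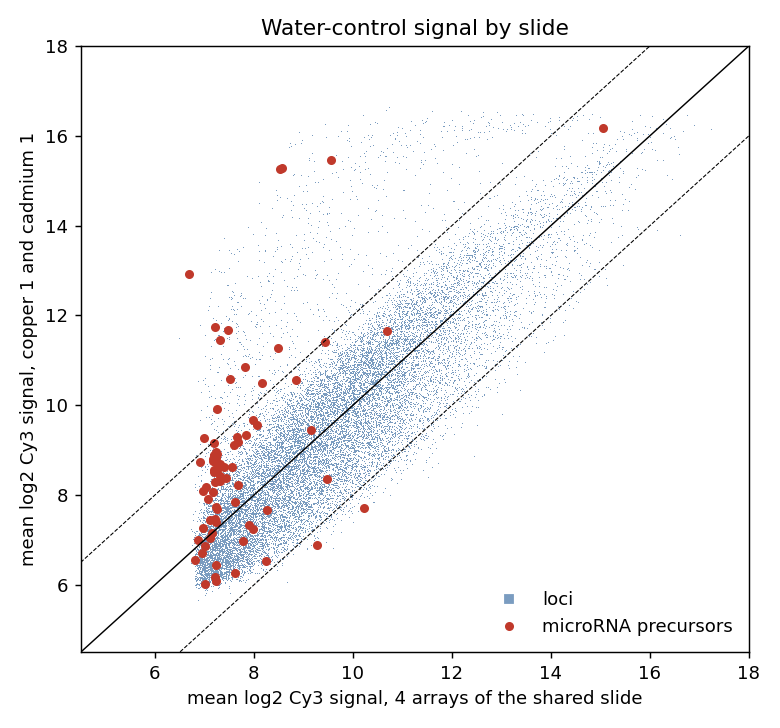
Mean log2 Cy3 signal on the 4 arrays of the shared slide (x axis) against the mean on copper 1 and cadmium 1 (y axis) for loci (blue) and microRNA precursors (red) detected on all 6 arrays; the solid line marks equal signal and the dashed lines 4-fold. A band of loci near the top left rises to about the highest signals on copper 1 and cadmium 1, while 376 loci lie below the lower dashed line.

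The most variable loci of the water channel belong to that band. Os10g0418300 on chromosome 10 was at 16.15 on copper 1 and 15.96 on cadmium 1, against 8.55 and 8.42 on copper 2 and 3 and 9.998 and 8.65 on cadmium 2 and 3. Os11g0444900 on chromosome 11 was at 16.16 and 15.50 against 8.51, 8.38, 9.48 and 8.53 in the same order. Their levels were 11.85 ± 3.88 and 11.62 ± 3.87 (SD, n = 5), so neither mean describes any of the arrays.

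In loci far apart between the slides, cadmium 2 often lay on the side of copper 1 and cadmium 1. Over the 348 loci at least 16-fold higher on copper 1 and cadmium 1, cadmium 2 was above all 3 of its slide mates in 321, with a median difference of 1.19 from their mean. Over the 376 loci at least 4-fold lower, it was below all 3 in 215, with a median difference of -0.16. In 246 of those 376, cadmium 3 was above all 3 of its slide mates, with a median difference of 0.19. The share over all detected loci was not counted. Cadmium 2 was also furthest from its slide mates in general. Its SD of the log2 difference from them was 0.36 to 0.42, against 0.13 to 0.30 among the others. Arrays of 1 slide thus differed among themselves, and whether they did so more in these loci than in others was not tested.

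The share of loci higher on copper 1 and cadmium 1 differed between kinds of probe. Against 3.87% of all loci, 11.7% of 3984 loci tagged COMBINER_EST were at least 4-fold higher and 1.83% of 15503 tagged mRNA. Within the mRNA tag, the share was 14.1% of 297 for 5'UTR+CDS, 14.7% of 150 for CDS, and 1.44% of 14538 for CDS+3'UTR, the class that holds most loci. The 4-fold lower loci did not follow these tags in the same way, at 0.34% for 5'UTR+CDS, 0 for CDS and 2.02% for CDS+3'UTR. By chromosome the share 4-fold apart in either direction ran from 5.05% to 6.30%.

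**Figure D4:**
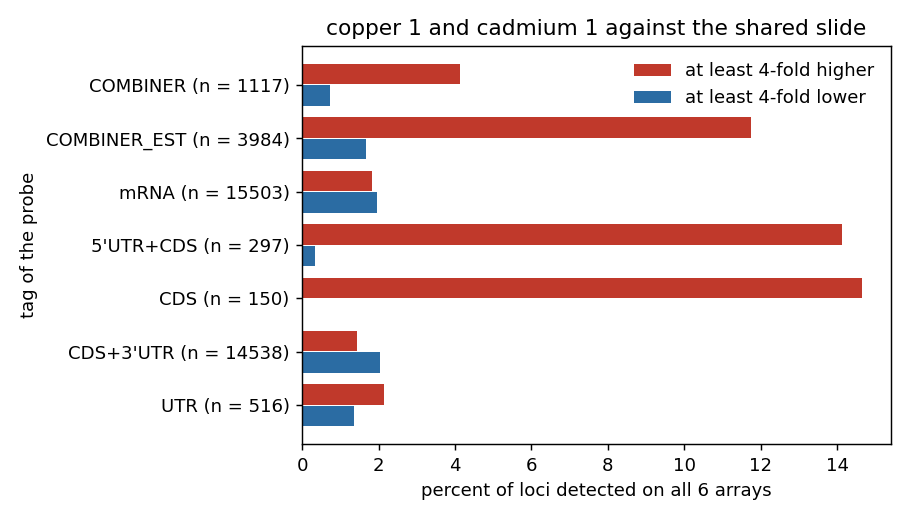
Percent of loci detected on all 6 arrays (x axis) that were at least 4-fold higher (red) or lower (blue) on copper 1 and cadmium 1 than on the shared slide, by the class tag of the probe and, for mRNA-tagged probes, its region tag (y axis, with the number of loci). The tags COMBINER_EST, 5'UTR+CDS and CDS have 11.7% to 14.7% of loci higher, against 1.44% for CDS+3'UTR.

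Other probes of the same locus often did not move with the chosen probe. Of the 348 loci at least 16-fold higher, 33 had another probe detected on all 6 arrays, and in 13 of these every other probe was at least 2-fold higher too, while in 20 some probe was under 2-fold. Of 118 such loci among those at least 4-fold lower, every other probe was at least 2-fold lower in 65. The chosen probe is the one of highest mean over the same 6 arrays. That choice favours a probe raised on copper 1 and cadmium 1 and works against one lowered there. Less movement of the other probes is thus partly built in for the higher loci, and the shares for higher and lower loci are not like for like. Over all 7801 loci with several probes the median gap between the brightest and the dimmest was 0.58 when measured as mean level, and 2737 (35.1%) had a gap of at least 1.

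The 4 control probes detected on all 6 arrays did not share a direction. The random probe stood at 10.56 on copper 1 and 10.57 on cadmium 1, 9.76 on cadmium 2, and 8.07, 8.03 and 8.24 on copper 2, copper 3 and cadmium 3. Of the 3 genome probes, 1 ran the other way, at 7.87 and 7.74 on copper 1 and cadmium 1 against 8.85 to 9.37 on the shared slide, and the other two differed by -0.59 and 0.35. Detection on all 6 arrays leaves out probes at background on the shared slide. A genome probe detected on 3 arrays was at 11.02 and 10.38 on copper 1 and cadmium 1 against 6.66 to 7.01 there. A probe for another plant, detected on 2 arrays, differed by 1.01. The 3 random probes detected on some arrays differed by -0.15, -1.26 and -0.76. The part that probe binding takes in the split was not tested.

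Water channels were compared between the arrays of copper and those of cadmium as a check, since both hold the same treatment. With limma and Benjamini-Hochberg adjustment over 22167 loci and precursors, 0 (0%) differed between copper and cadmium arrays at an adjusted p under 0.05. In the same fit, 245 had an unadjusted p under 0.05. Copper 1 stands apart within the copper set and cadmium 1 within the cadmium set, so the split adds to the spread within each set. A count of 0 therefore does not show that the sets are alike. With the slide as a block, 325 (1.47%) were called, 304 higher on the copper arrays and 21 on the cadmium arrays, and 190 of them by at least 2-fold. That fit rests on the shared slide alone, where copper 2 and copper 3 differed by less than spot noise, so its p-values are too small.

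MicroRNA precursors were read by 3 probes each, to the mature sequence and to the 5' and 3' flanks. Of 170 precursors in 45 families, 77 (45.3%) were detected on all 6 arrays, 34 on none and 59 on some. By probe, 43 of 170 5' flanks, 28 of 170 3' flanks and 25 of 170 mature probes were detected on all 6. Both flanks were detected on all 6 arrays in 16 precursors and 1 flank in 39, while 21 were read by the mature probe only; the remaining 1 was read by different probes on different arrays. In 27 families at least 1 precursor was detected on all 6 arrays, and in 6 families none was detected on any.

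The brightest precursor was osa-miR168a on chromosome 2, of the family that targets Argonaute 1 itself. Its 3' flank was at 16.18, 14.75 and 14.66 on copper 1 to 3 and 16.18, 16.01 and 14.77 on cadmium 1 to 3, or 15.57 ± 0.76 (SD, n = 5), the rank of 63 among loci. Its 5' flank read 15.13 ± 1.02, and its mature probe 6.78 ± 0.69 (SD, n = 5). The flanks were thus among the brightest signals of the root, while the mature probe stood near background. Cadmium 2 was close to copper 1 and cadmium 1 on the 3' flank, and the other 3 arrays were lower.

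**Figure D5:**
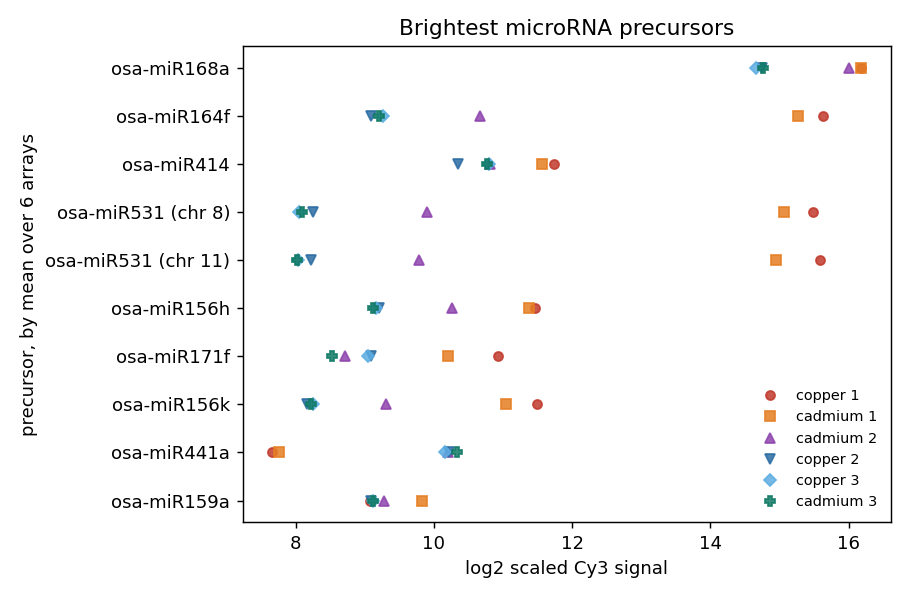
Log2 scaled Cy3 signal (x axis) of the 10 microRNA precursors with the highest mean (y axis), with a symbol per array. In osa-miR164f and both osa-miR531 copies copper 1 and cadmium 1 lie above 14.9 and the shared slide at or below 10.67, with cadmium 2 the highest of its slide.

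The next precursors owed their mean to copper 1 and cadmium 1. The 5' flank of osa-miR164f was at 15.63 on copper 1 and 15.27 on cadmium 1, against 9.09, 9.27, 10.67 and 9.21 on copper 2, copper 3, cadmium 2 and cadmium 3. The mature probes of osa-miR531 on chromosomes 8 and 11 gave 11.34 ± 3.67 and 11.30 ± 3.70 (SD, n = 5), with 15.48 and 15.07 on copper 1 and cadmium 1 for the first and 15.59 and 14.95 for the second, and 8.03 to 9.90 on the rest. The probes of osa-miR414 disagreed. Its 3' flank was at 11.09 ± 0.52 (SD, n = 5), from 10.36 on copper 2 to 11.74 on copper 1. Its 5' flank, also detected on all 6 arrays, was at 13.02 on copper 1 and 12.28 on cadmium 1 against 7.10 to 7.50 on the shared slide.

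miR156, which targets squamosa promoter-binding factors, gave 2 of the 10 brightest precursors. Of its 11 precursors, 9 were detected on all 6 arrays, 8 of them by a flank. osa-miR156h reached 10.28 ± 1.13 and osa-miR156k 9.65 ± 1.54 (SD, n = 5). Both were highest on copper 1 and cadmium 1, at 11.46 and 11.37 for osa-miR156h and 11.49 and 11.04 for osa-miR156k.

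Of the families that act on transcription factors of growth, miR166 had 8 of 13 precursors detected on all 6 arrays and miR171, which targets GRAS factors, 4 of 9. osa-miR171f was at 9.49 ± 1.03 and osa-miR166h at 8.60 ± 0.94 (SD, n = 5). In miR164 it was 4 of 6 and in miR160, which targets auxin response factors, 3 of 6, with osa-miR160b at 8.74 ± 1.70 (SD, n = 5). miR159, which targets GAMYB factors, had 2 of 6, led by osa-miR159a at 9.28 ± 0.32 (SD, n = 5). miR396, which targets growth-regulating factors, had 3 of 4, led by osa-miR396c at 7.89 ± 0.38 (SD, n = 5). miR172, which targets AP2 factors, had 1 of 4, osa-miR172a at 7.95 ± 1.12 (SD, n = 5). miR167 and miR169 had 1 of 10 and 3 of 16 detected on all 6 arrays, led among those by osa-miR167d at 6.84 ± 0.19 and osa-miR169i at 7.49 ± 0.68 (SD, n = 5). miR162, which targets Dicer-like 1, had both of its precursors detected on all 6, osa-miR162b at 7.71 ± 0.75, and miR393, which targets auxin receptors, had 1 of 2, osa-miR393 at 7.21 ± 0.51 (SD, n = 5).

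Several further families with a precursor detected on all 6 arrays were dim. osa-miR535 was at 7.93 ± 1.27 and osa-miR416 at 7.46 ± 0.49 (SD, n = 5). osa-miR442 was at 7.08 ± 0.83, osa-miR445a at 6.80 ± 0.78 and osa-miR439j at 6.75 ± 0.73 (SD, n = 5), each lowest on cadmium 1, where background was lower. Further precursors of large spread were osa-miR156d at 9.03 ± 2.52, osa-miR164b at 9.18 ± 2.35 and osa-miR164d at 8.95 ± 2.33 (SD, n = 5). These 3 were at 10.76 to 12.40 on copper 1 and cadmium 1 and at 7.10 to 7.97 on the shared slide.

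Of the families tied to nutrient supply, miR395 and miR399 each had 1 precursor that a flank detected on all 6 arrays. miR395, which targets sulfate assimilation and transport, had 18 of 23 precursors detected on all 6 arrays, but only 1 of them by a flank. The family ranged from 6.14 to 8.21, and 2 of the 23 were detected on no array. The highest was the mature probe of osa-miR395f at 8.21 ± 0.85 (SD, n = 5), with 9.34 on copper 1, 8.90 on cadmium 1 and 7.45 to 7.68 on the shared slide. Mature sequences within a plant microRNA family are often near-identical, so these probes may read the same RNA and are not separate observations. miR399, which acts in phosphate supply, had 1 of 11 detected on all 6, osa-miR399c at 7.58 ± 0.76 (SD, n = 5), also by a flank.

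Families that are known to respond to copper supply were at low to middling levels in water roots. osa-miR408 read 8.33 ± 1.45 and osa-miR528 8.64 ± 1.00, osa-miR398b 6.92 ± 0.22 (SD, n = 5), and neither of the 2 miR397 precursors was detected on all 6 arrays. osa-miR408 was at 10.02 on copper 1 and 9.80 on cadmium 1 against 7.20 to 7.41 on the shared slide. osa-miR398b did not show that split in the setting used here, at 6.66 to 7.27, with a difference of -0.14 from the shared slide. Its level is near background. The difference was 0.62 with the processed signal and 0.54 with negative-control spots subtracted.

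A few precursors ran the other way. osa-miR441a was at 7.66 and 7.76 on copper 1 and cadmium 1 against 10.16 to 10.34 on the shared slide, osa-miR441b at 8.58 and 8.15 against 9.29 to 9.71, and osa-miR446 at 6.76 and 6.32 against 8.17 to 8.34. The 77 precursors detected on all 6 arrays are not all separate observations. They include 18 of miR395, only 1 of them by a flank, whose mature probes may read the same RNA (above). Both osa-miR531 copies also read alike. Each precursor took the brightest of its 3 probes, a choice that favours a probe raised on copper 1 and cadmium 1. Of the loci, 21889 had 1 probe, so precursors and loci are not like for like. Over single precursor probes detected on all 6 arrays, the median difference was 0.84 for 43 5' flanks, 0.27 for 28 3' flanks and 1.52 for 25 mature probes. With these limits, 44 of the 77 were at least 2-fold higher on copper 1 and cadmium 1, beside 12.7% of loci. Another 8 were at least 2-fold lower, beside 19.5% of loci. The median difference of the 77 was 1.16 beside -0.14 for loci. The size depended on the processing: the median was 1.99 with the processed signal, 1.96 with negative-control spots subtracted and 1.53 with normexp, and precursors at least 4-fold higher numbered 13, 38, 38 and 15 in that order, starting from the setting used here. All 52 precursors at least 2-fold apart had groups of arrays that did not overlap, as did 6578 of the 6633 loci at least 2-fold apart. Both sets were picked by the gap between the same groups of arrays, so the lack of overlap adds no support. The 4 most variable precursors were both osa-miR531 copies, osa-miR171h and osa-miR164f. osa-miR171h was at 13.26 and 12.60 on copper 1 and cadmium 1 and at 6.60 to 6.84 on the shared slide by its mature probe, which was detected on those 2 arrays only; its 5' flank, detected on all 6, ranged from 7.85 to 9.10.

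Detection showed the split as well. On both copper 1 and cadmium 1 but on no array of the shared slide, 435 loci (1.47%) and 20 of 170 precursors were detected, and the reverse held for 129 loci (0.43%) and 1 precursor. The counts are not like for like, since the first needs detection on 2 arrays and none of 4, and the second detection on 4 and none of 2. The levels of such loci on the other arrays lie at background and set only a bound.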

How the data were processed

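The authors deposited scanner tables of spot intensity made with Agilent Feature Extraction 10.7.1.1, as the file headers state, before any normalization between arrays. Per the labels, water-control RNA was labelled with Cy3. The median Cy3 signal minus the median local background was scaled on each array to a common 75th percentile, floored at 10 units and put on the log2 scale; spots marked as outliers were left out and spots of a probe averaged. A locus took its probe of highest mean. The deposited log2 ratios and the Cy5 channel were not used. The comparison of water channels used limma 3.58.1 in R 4.3.3 (two-sided, Benjamini-Hochberg), on loci and precursors passing a filter on dim signal. On data simulated for that comparison (22167 loci), the fit recovered 131 of 200 changes of 1 log2 unit and 190 of 200 of 2. It also made 8 and 15 false calls. The simulation took the SD of each locus within the shared slide and left out the split between slides. The real spread was wider, with a median SD of 0.45 against 0.14 over loci detected on all 6 arrays. These counts therefore overstate what the real fit could recover. The number of arrays limits the precision. Same-numbered arrays deviated together (r 0.891, 0.734 and 0.888), copper 1 deviating with cadmium 2 and 3 at -0.733 and -0.897. Among numbers 2 and 3 other pairs did so too (0.888 and 0.717), and these values follow in large part from centring groups in which array 1 stands apart. Alternatives were the scanner's processed intensity, normexp (offset 50) with quantile normalization, other scaling, a floor of 1, the mean of probes, other detection rules and each array left out; subtraction of negative-control spots and the slide subsets were added after seeing the data. Loci named in the text are the 2 highest and the 2 most variable. Named precursors are the 10 highest, the highest of each detected family and the 8 most variable, and osa-miR441b, chosen after its values were seen. The 8 most variable were picked among precursors detected on all 6 arrays with a mean above the median of these. The members and lists were chosen with earlier results of these data known.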

Additional observations from a re-analysis of the deposited data

Results flagged for a closer look

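In osa-miR159a, cadmium 1 stood apart at 9.83, where the other values lay between 9.08 and 9.28. The median local background of copper 1 was 55.0 scanner units, against 38.5 to 41.5 on the other arrays. These were the 2 of 43 sets of values in which an array lay far from the rest; chance gives about 1 in 20. Among probes outside the loci and precursors, 4 were detected on all 6 arrays: the random probe at a mean level of 9.20, and 3 genome probes at 8.65, 7.16 and 7.59.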

How the results depend on the processing

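The count of loci that differed between the water channels was 0 under every alternative run (each array left out included, range 0 to 0) except with the slide as a block, which gave 325; the replicate block gave 0, with 1343 loci at an unadjusted p under 0.05. Of the brightest 100 loci, copper 1 and cadmium 1 alone shared 20, and leaving out an array kept 91 to 96. Loci detected on all 6 arrays stayed within 1.5 times of 20605 under each rule tried (20647 to 21173 with an array left out). Precursors detected on all 6 were 120 with the scanner's positive-and-significant flag, 1 when all 3 probes had to be detected, and 122 on copper 1 and cadmium 1 alone (77 to 83 with an array left out). The median SD of a locus was 0.506 with the processed signal, 0.388 with normexp, 0.498 with negative-control spots subtracted, 0.149 on the shared slide alone, 0.213 on copper 1 and cadmium 1 alone, 0.462 with cadmium 3 also averaged with copper 2 and 3, and 0.371 to 0.488 with an array left out. Loci at least 4-fold apart between slides numbered 1174, 1901 with the processed signal, 1769 with negative-control spots subtracted, and 1099 to 1344 with an array left out. Of the 38 named levels, 19 moved by more than their SD when the probes were averaged, 10 when negative-control spots were subtracted and 4 with the processed signal. The cause of these shifts was not tested. Dim signals are limited by the offset of the negative-control spots.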
